A study of Drosophila melanogaster with 12 samples.

Results

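The mitochondrial ribosomal protein genes are described here in Drosophila Kc cells treated with double-stranded RNA (dsRNA). They were chosen by name as the features of the deposited count table whose gene name starts with mRpL or mRpS. The rule found 73 of the 23882 features, of which 47 carry the large-subunit prefix mRpL and 26 the small-subunit prefix mRpS. Polyadenylated RNA was sequenced from 12 libraries of Kc 167, a cultured line derived from embryos, after 5 days with dsRNA, which directs the degradation of matching mRNA. Each of the 4 groups has 3 libraries. The groups received dsRNA against yellow (control; a pigmentation gene), gcn5 (dGcn5-depleted), elp3 or nej, and all libraries come from this 1 line without any other treatment. dGcn5 and Elp3 are acetyltransferases, and nej encodes the Drosophila CBP acetyltransferase. Nothing states that the 3 libraries of a group came from separate cultures, so p-values measure the spread between these libraries, which may be technical.

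Mitochondrial ribosomes translate the few proteins that the mitochondrial genome itself encodes, all of them subunits of the oxidative phosphorylation complexes. Their RNAs come from the mitochondrial genome, whereas all of their proteins are encoded in the nucleus, made in the cytoplasm and imported. The proteins fall into those with a counterpart in bacterial ribosomes and those that were added in mitochondria.

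By this division, 45 members have a bacterial counterpart and 28 are specific to mitochondria. The members lie on all large chromosome arms of the BDGP6.32 assembly, with 12 on 2L, 12 on 2R, 17 on 3L, 21 on 3R and 11 on X. They are short genes. Their annotated exon length ran from 327 bp (mRpL34) to 2078 bp (mRpS30) with a median of 783 bp, against a median of 2076.5 bp over the 10368 features tested in all 12 libraries. The median span from first to last base was 909 bp, and the longest were mRpS5 with 6299 bp and mRpS9 with 13391 bp.

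Exons of 43 members share bases with another annotated feature, on the opposite strand in 42 members and on the same strand in 3. The libraries were stranded, but the strand setting of the counting is not given in the sources used here, so counts of these members are uncertain to that extent. The largest overlaps with the opposite strand were 332 of 600 bp of mRpS24 (with TBC1d7), 325 of 1293 bp of mRpS9 (with ArgRS-m), 258 of 1092 bp of mRpL17 (with CG34263), 255 of 797 bp of mRpS14 (with Naa15-16) and 228 of 475 bp of mRpS21 (with CG8870). On the same strand, mRpL13 shared 236 bp with CG10602 and mRpS14 shared 30 bp with CG32533.

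The remaining same-strand overlap decided what could be measured. mRpL53 (FBgn0050481, chromosome 2R, 13954195 to 13955664, plus strand, 3 exons), a protein specific to mitochondria, had 0 counts in every library. All of its 829 exon bp are also annotated as exon of CG33155 on the same strand, which leaves 0 bp of its own. A count of 0 therefore says nothing on whether the gene was expressed. mRpL53 was the only member that did not pass the filter on low counts. The other 72 members passed it in every comparison and had between 133 and 6837 counts in each library.

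Total counts ran from 19102102 to 23198850 per library. Gcn5 stood at 138 ± 11.1 CPM (counts scaled to library size; SD, n = 3) in controls and at 40.1 ± 10.3 CPM in dGcn5-depleted cells, and these libraries did not overlap. Its log2 fold change was -1.78, with an adjusted p of 0.421 in edgeR's quasi-likelihood F test (Benjamini-Hochberg). Elp3 stood at 52.5 ± 6.46 CPM in controls and 3235 ± 1178 CPM in the libraries labelled Elp3. nej stood at 148 ± 88.2 CPM in controls and at 309, 3245 and 698 CPM in the libraries labelled nej (1417 ± 1595). The source of these counts was not tested, and the paper reports an Elp3 knockdown in Kc cells measured by RT-qPCR. The counts themselves do not show depletion, so both groups are named here by their labels only. The control's own target y stood at 23.1 ± 18.2 CPM in controls, and at 23.1, 27.3 and 24.9 CPM in the dGcn5-depleted group and those labelled Elp3 and nej, so its counts did not show depletion in controls either. The hemocyte markers that Kc cells are known for were present at unequal levels, from NimC1 at 2.07 to 21.8 CPM to Hml at 402 to 3825 CPM. The fat body markers Lsp1alpha and Fbp1 had at most 10 counts in any library. Muscle, neuron and germline markers ranged from 0.0918 CPM to the 185 CPM of Mlc2. The Mlc2 median of 85.4 CPM was above those of NimC1 and He (66.9 CPM for He). It was below those of srp, Hml, Pxn, Col4a1, vkg and Ppn. Of the genes listed for male cell lines, msl-2 had a median of 4.78 CPM and a highest value of 10.9 CPM. The others, roX1 and roX2, were not matched by name, so nothing is concluded from this list.

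Mitochondrial ribosomal protein genes were moderately expressed and close to each other in level. Per kilobase of exon, the median of the 72 members tested was 50.7 CPM per kb in controls, against 13.0 CPM per kb over all features tested. The 86 tested genes for proteins of the cytoplasmic ribosome had a median of 1621 CPM per kb. The highest and lowest members were 7.75-fold apart, and 64 of 72 lay within 2-fold of the median.

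mRpS5 (FBgn0287187, chromosome 3L, 24537236 to 24543534), the counterpart of the bacterial protein S5 near the mRNA entry site, had the highest level per length. It stood at 170, 174 and 130 CPM per kb in the 3 controls, a mean of 158 ± 24.2. mRpL39 (FBgn0036462, chromosome 3L, 14997981 to 14999666), a protein specific to mitochondria, followed with 133, 131 and 147 CPM per kb, a mean of 137 ± 8.59. The third was mRpL12 (FBgn0011787, chromosome 3L, 8956791 to 8957584), the stalk protein that engages translation factors, at 76.4, 84.9 and 180 CPM per kb. Its mean of 114 ± 57.5 rested on control 3, and the controls of these 3 genes overlapped, so their order is not settled by the spread between libraries.

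At the lower end stood mRpL21, with 17.5, 18.7 and 25.0 CPM per kb in the 3 controls (20.4 ± 4.01). mRpL54, specific to mitochondria, had 22.2 ± 5.61 and mRpL17, an exit tunnel protein, 23.4 ± 3.61. These 3 also overlapped each other, but none of their control libraries reached those of mRpS5, mRpL39 or mRpL12. In all 4 groups mRpS5 ranked first and mRpL39 second. The ranking of all members per length was much the same in every group, with a Spearman rho against controls of 0.960 in dGcn5-depleted cells, 0.954 for the label Elp3 and 0.958 for the label nej. These are descriptions over 72 genes that share their exon lengths between groups.

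**Figure D1:**
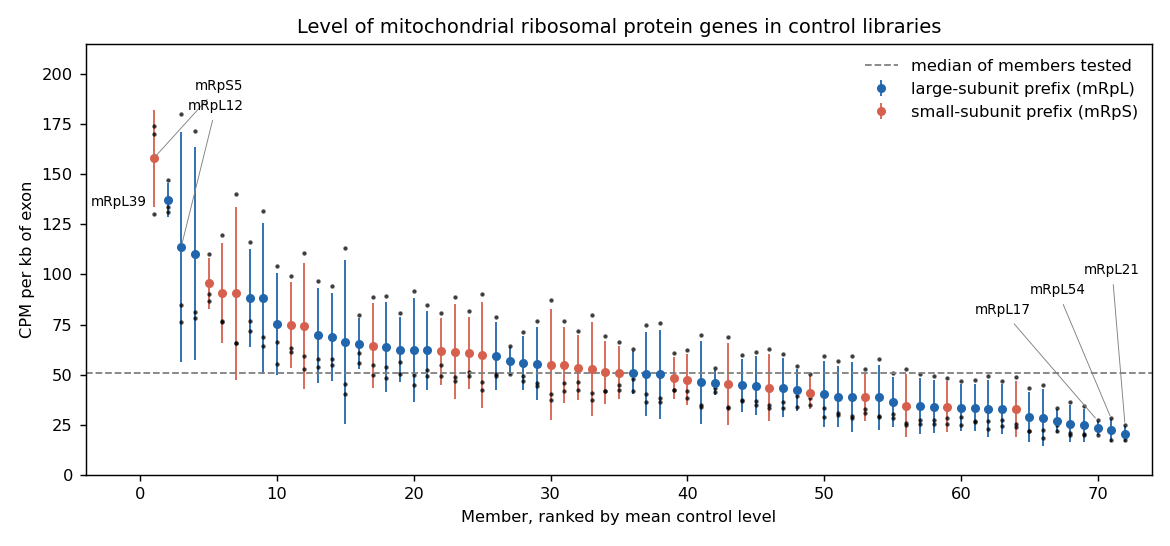
Level per exon length of the 72 members tested, in the control libraries. Large points are means of 3 libraries in CPM per kb, bars are SD and small points are single libraries. Levels fall from 158 (mRpS5) to 20.4 (mRpL21) around a median of 50.7, and in most members 1 of the 3 control libraries sits far above the other controls.

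Neither subunit nor origin split the levels widely. The median was 45.3 CPM per kb for mRpL genes and 54.1 for mRpS genes, and 50.9 with and 50.5 without a bacterial counterpart. mRpS18A and mRpS30 carry the small-subunit prefix, although animal mitoribosome structures place their proteins in the large subunit. mRpS18A, mRpS18B and mRpS18C, 3 homologs of a single bacterial protein, stood at 51.0, 45.3 and 32.7 CPM per kb. mRpL10, which anchors the stalk protein mRpL12, stood at 34.2. Among mitoribosomal genes without the prefix, bonsai (the counterpart of bacterial S15) stood at 67.7 CPM per kb, inside the range of the members. tko, the counterpart of bacterial S12 and known for its bang-sensitive mutants, stood at 5.06 CPM per kb, below every member tested, and its 1596 bp of exon are shared with no other feature.

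The members moved together from library to library, more than from group to group. Their summed level was 3069, 3093 and 4793 CPM in controls 1, 2 and 3, a mean of 3652 ± 988. It was 3586, 3967 and 3115 CPM in dGcn5-depleted libraries 1, 2 and 3 (3556 ± 427, 97.4% of the control mean). It was 4928, 2731 and 2823 CPM under the label Elp3 (3494 ± 1242, 95.7%) and 2687, 2704 and 3345 CPM under the label nej (2912 ± 375, 79.7%). Control 3 and the library labelled Elp3 1 stood above all others, and every group overlapped the controls.

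These libraries carried nearly every member with them. In each, 71 of 72 members were above their own mean over the 12 libraries, against 1 of 72 in the library labelled nej 1. Of the 72 members, 39 had their highest value in control 3 and 31 in the library labelled Elp3 1. The exceptions were mRpS11, highest in dGcn5-depleted library 2, and mRpS5, highest in the library labelled nej 3. Over the 12 libraries, the correlation of a member with the mean of the other members had a median of 0.93, and it was over 0.8 for 65 of 72 members. The same correlation with the members' mean profile was over 0.8 for 11.4% of all features tested. These correlations are descriptions over 12 libraries that share their depth scaling.

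Gene length moved with this pattern. Over all features tested, the slope of a library's log2 deviation on log2 exon length was -0.33 in control 3 and -0.34 in the library labelled Elp3 1, so that short genes read high there. It was 0.13 and 0.15 in controls 1 and 2 and -0.13, -0.21 and 0.05 in dGcn5-depleted libraries 1, 2 and 3. It was 0.15 and 0.14 in the libraries labelled Elp3 2 and 3, and 0.19, 0.23 and -0.02 in those labelled nej. The summed level of the cytoplasmic ribosomal protein genes, which are short as well, ran from 93452 to 230399 CPM and was likewise highest in control 3 and the library labelled Elp3 1. With the trend on length removed, the median correlation between members fell from 0.93 to 0.63, and 11 of 72 members kept one over 0.8. What gave the libraries their slopes was not tested.

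mRpS5 ran the other way. Its level was 286, 293 and 219 CPM in the 3 controls and 269, 293 and 296 CPM in dGcn5-depleted libraries. It was 207, 289 and 270 CPM under the label Elp3 and 244, 212 and 325 CPM under the label nej. The library labelled Elp3 1, where 31 members had their highest value, held its lowest, and control 3 was its lowest control. mRpS5 was the only member whose correlation with the others was negative (-0.40 over 12 libraries), and it stayed negative at -0.54 with the length trend removed, where mRpL3 (-0.11) and mRpL39 (-0.05) joined it. Its exon length of 1682 bp is among the longest of the members. mRpS30, the longest, had the steadiest level, with an SD of 0.19 on the log2 CPM scale over the 12 libraries, and mRpL33, at 349 bp, the least steady with 0.60.

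**Figure D2:**
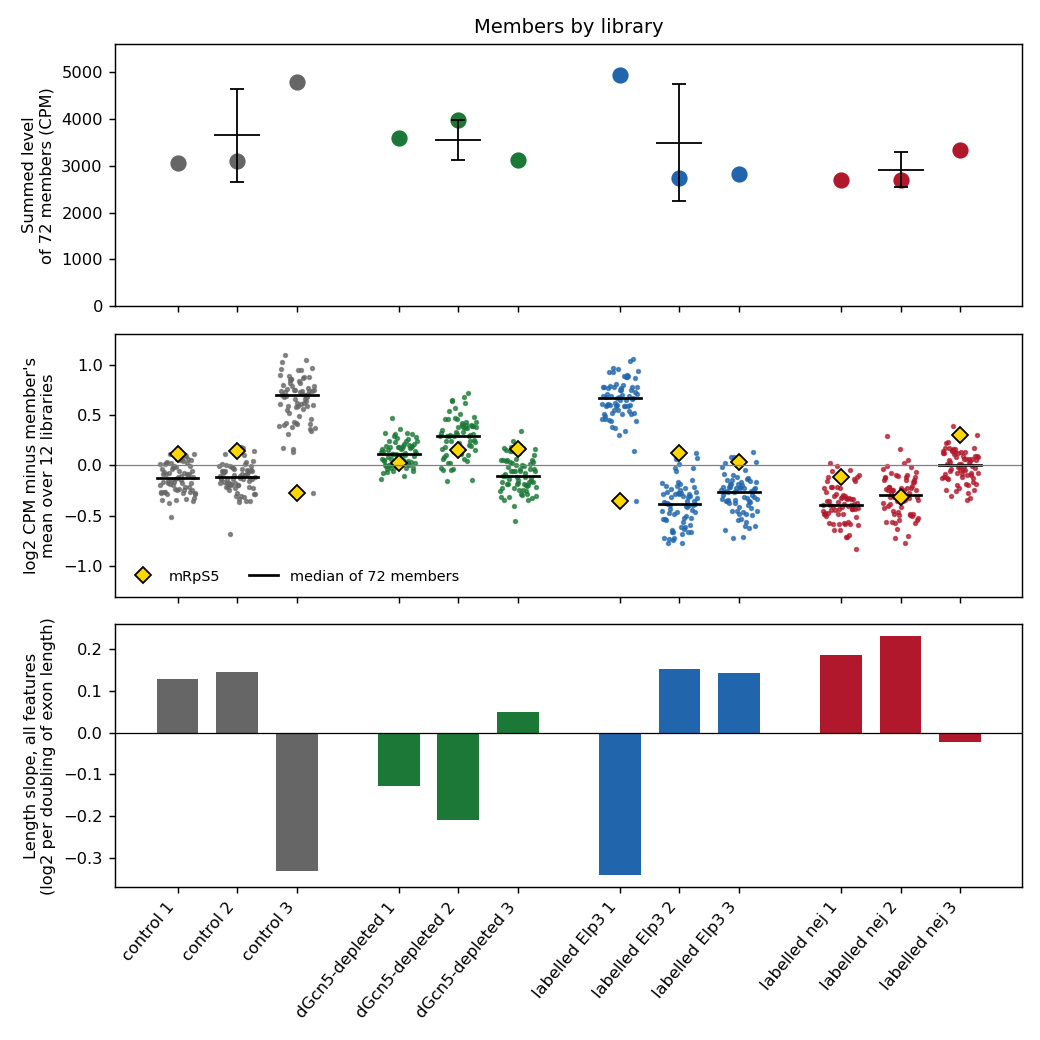
The 12 libraries, 3 per group. Top, summed level of 72 members in CPM, with the group mean and SD as bars; middle, each member's log2 CPM minus its own mean, with the median as a line and mRpS5 as a diamond; bottom, the slope of log2 deviation on log2 exon length over all features. Control 3 and the library labelled Elp3 1 combine the highest sums (4793 and 4928) with the steepest negative slopes (-0.33 and -0.34), and mRpS5 lies below its own mean in both.

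In dGcn5-depleted cells, no mitochondrial ribosomal protein gene passed the test against controls in the fit to all 6 libraries. The fitted log2 fold change was above 0 in 20 members and below 0 in 52, with a median of -0.08 against -0.03 over all 9820 features tested. In edgeR's quasi-likelihood F test (Benjamini-Hochberg), 0 of 72 members and 0% of all features had an adjusted p under 0.05. Gcn5 itself, at a log2 fold change of -1.78, was not called in this fit either. At an unadjusted p under 0.05 there were also 0 members, against 2.02% of all features higher and 1.65% lower. In no member were the 3 dGcn5-depleted libraries all above or all below the 3 controls, against 4.01% of all features above and 4.13% below. DESeq2 called 0 members as well. The 95% confidence interval lay within a log2 fold change of 1 in either direction for 64 of 72 members, but within 0.58 for 1, so that changes of the smaller size were not detectable with this spread.

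Control 3 stood apart in mRpL33 and mRpL20, the highest and the lowest member of this comparison. mRpL33, a small protein near the tRNA exit site, had the highest log2 fold change. It stood at 15.8, 14.0 and 39.6 CPM in controls and at 31.1, 35.4 and 21.6 CPM in dGcn5-depleted libraries, so that libraries 1 and 2 were above controls 1 and 2 but below control 3. The log2 fold change was 0.34 (95% interval -0.68 to 1.37). mRpL49, specific to mitochondria, followed with 0.27, mRpL17 of the exit tunnel and mRpS28 with 0.23 each.

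At the other end, mRpL20, which binds ribosomal RNA early in the assembly of the bacterial large subunit, stood at 21.8, 23.1 and 45.7 CPM in controls and 20.5, 19.1 and 22.0 CPM in dGcn5-depleted libraries. Libraries 1 and 2 were below every control, but library 3 was above control 1, so the groups overlapped. Its log2 fold change was -0.56 (95% interval -1.33 to 0.21). mRpS18C followed with -0.52, mRpL14, a protein of the subunit interface, with -0.45 and mRpL10 of the stalk base with -0.38. None of these 8 members passed the test, with an adjusted p of 0.984 for each (edgeR's quasi-likelihood F test (Benjamini-Hochberg)).

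The result depended on the libraries fitted. With the third library of each group left out, so that 2 dGcn5-depleted libraries were set against 2 controls, the median log2 fold change of the members turned to 0.32 and 27 of 72 had an adjusted p under 0.05 in edgeR's quasi-likelihood F test (Benjamini-Hochberg). All 27 were higher in dGcn5-depleted cells, 37.5% of the members against 21.1% of all features higher. None was lower, against 22.3% of all features, and 43.4% of all features were called in either direction. The called members were 15 of 46 mRpL and 12 of 26 mRpS genes, and 17 of 45 with and 10 of 27 without a bacterial counterpart. mRpL33 had the largest change with a log2 fold change of 1.17, followed by mRpL49 (0.75), mRpS18B (0.71) and mRpL42 (0.71), and mRpS22 the smallest with 0.35. By level, both dGcn5-depleted libraries were above both controls in 54 members and below both in 4, against 37.2% and 36.7% of all features.

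Length separated the same 4 libraries. Both dGcn5-depleted libraries had negative length slopes and both controls positive ones, so that group and slope cannot be told apart in this fit. With the length trend removed as well, a fit added after the data had been seen, the members' median was -0.11 and 6 of 72 were called. mRpL33 was higher (0.63), and mRpL20 (-0.67), mRpS10 (-0.58), mRpL32 (-0.56), mRpL14 (-0.53) and mRpL10 (-0.46) were lower. Of all features, 25.4% were called there, 13.2% higher and 12.3% lower. mRpL33 was the only member called higher in both fits, and the 5 lower members were not among the 27. limma-voom with sample quality weights, which gave control 3 a weight of 0.11 and dGcn5-depleted library 3 a weight of 0.23, called 28 of 72 members, all higher, against 24.4% of all features higher and 24.1% lower.

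**Figure D3:**
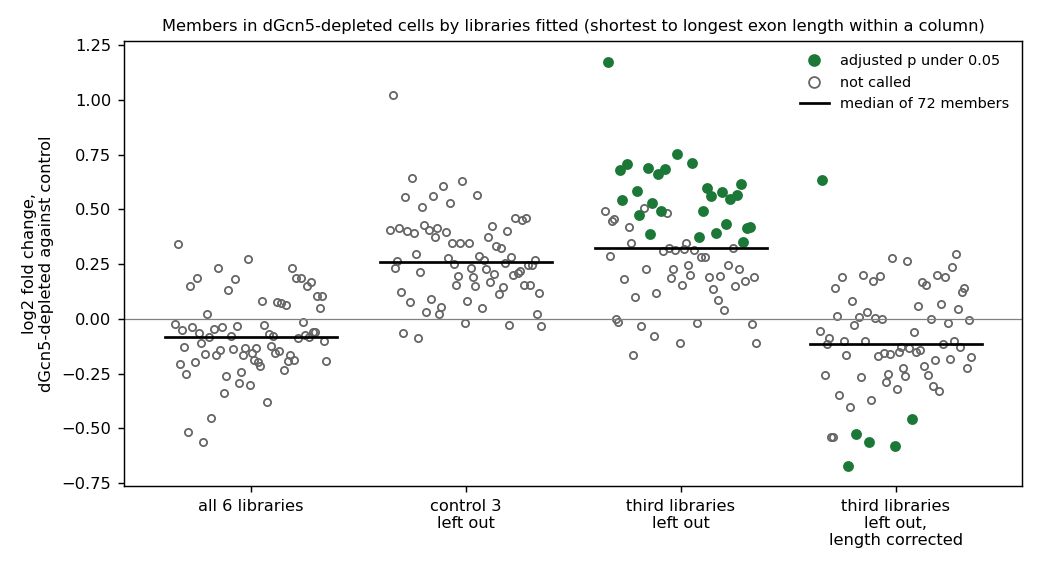
log2 fold change of the 72 members in dGcn5-depleted against control cells, in 4 fits that differ in the libraries used or in a correction for exon length. Filled points have an adjusted p under 0.05, lines are medians, and members run from short to long within a column. The median moves from -0.08 (0 called) to 0.26 without control 3 (0 called), 0.32 without the third libraries (27 called) and -0.11 with the length trend removed (6 called).

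In the libraries labelled Elp3, no member passed the test against controls. The log2 fold change was above 0 in 15 members and below 0 in 57, with a median of -0.14 against -0.02 over all 9915 features tested. In edgeR's quasi-likelihood test 0 of 72 members passed an adjusted p of 0.05 (Benjamini-Hochberg), as did 0.0101% of all features, which is Elp3 alone. At an unadjusted p under 0.05 there were 0 members, against 2.42% of all features higher and 1.44% lower. In 0 members did the groups fail to overlap, against 4.08% of features higher and 4.54% lower. DESeq2 and limma-voom called 0 members each. The interval lay within a log2 fold change of 1 in either direction for 27 of 72 members, fewer than in dGcn5-depleted cells, and within 0.58 for 0.

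The highest log2 fold changes were those of mRpS9, whose bacterial counterpart reaches toward the decoding site (0.29), mRpS28 (0.28), mRpL28 (0.18) and mRpL4 (0.12). mRpS9 stood at 98.9, 98.9 and 155 CPM in controls and 229, 126 and 87.7 CPM in the libraries labelled Elp3, which placed these libraries on both sides of the controls. The lowest were mRpL20 (-0.60), mRpL14 (-0.53), mRpS18C (-0.51) and mRpL32 (-0.49). mRpL20 stood at 32.6, 12.5 and 16.7 CPM in the libraries labelled Elp3, of which 2 were below every control. The direction turned without control 3, where the median was 0.18 with 57 of 72 members above 0. Without the library labelled Elp3 1, the median was -0.52 with 71 of 72 members below 0. The 4 highest members were negative there, with mRpS9 at -0.12, mRpS28 at -0.26, mRpL28 at -0.13 and mRpL4 at -0.21. A fit without both of these libraries was added after the data had been seen. Its median was -0.14, with 12 of 72 members above 0.

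In the libraries labelled nej, no member passed the test. The fitted log2 fold change was below 0 in 71 of 72 members, with a median of -0.39 against 0.01 over all 9816 features tested, in which 50.7% were above 0. It was below 0 in 51 members without control 3 (median -0.08) and in 50 with the length trend removed (median -0.09). In edgeR's quasi-likelihood test 0 members and 0% of all features had a Benjamini-Hochberg adjusted p under 0.05, and DESeq2 and limma-voom called 0 members each. At an unadjusted p under 0.05, 2 members were lower against 1.75% of all features, and 0 were higher against 1.89%. In 7 members all libraries labelled nej were below all controls, against 5.25% of all features, and in 0 they were above, against 4.58%. With the replicate number as a block, 11 members were lower at an unadjusted p under 0.05 against 5.5% of all features, 0 were higher against 6.03%, and 0 were called after adjustment. In bulk RNA, fewer cells of a type and less RNA per cell cannot be told apart.

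mRpL55, specific to mitochondria, had the lowest log2 fold change with -0.81 (95% interval -1.65 to 0.02). It stood at 22.7, 20.4 and 41.9 CPM in controls and 14.5, 12.7 and 21.0 CPM in the libraries labelled nej, where the highest passed control 2. mRpS17, an RNA-binding protein of the small subunit, stood at 26.7, 29.1 and 56.9 CPM against 21.0, 19.1 and 25.6 CPM, and mRpS14 at 20.1, 22.7 and 38.6 CPM against 12.8, 18.1 and 16.6 CPM. In both the groups did not overlap, with log2 fold changes of -0.77 each, and mRpS18C (-0.71) overlapped.

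mRpS21 (24.5, 23.5 and 38.7 CPM against 18.3, 17.2 and 19.2 CPM; log2 fold change -0.66) and mRpS14 were the 2 members with an unadjusted p under 0.05 (edgeR's quasi-likelihood test, 0.042 and 0.044). mRpS21 shares 228 bp and mRpS14 255 bp of exon with a gene on the opposite strand. The other members without overlap were mRpL2 of the peptidyl transferase region (-0.60), mRpS26 (-0.45), mRpL4 (-0.38) and mRpL39 (-0.32), beside mRpS17. The highest log2 fold changes were those of mRpL17 (0.030), mRpS5 (-0.025), mRpL28 (-0.035) and mRpL38 of the central protuberance (-0.10).

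Length again moved with the difference. Across the 72 members, the correlation of log2 fold change with log2 exon length was 0.54 in the libraries labelled nej, 0.33 in those labelled Elp3 and 0.15 in dGcn5-depleted cells, as a description over genes that share libraries. With the length trend removed, the median of -0.09 in the libraries labelled nej stood against 0.05 over all features. The 95% interval lay within a log2 fold change of 1 in either direction for 28 of 72 members.

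Removing the length trend left the medians of the other comparisons at -0.12 (dGcn5) and -0.14 (labelled Elp3), against 0.01 and -0.01 over all features. It narrowed the spread between libraries. All treated libraries were then below all controls in 17 members for dGcn5, 20 for the libraries labelled Elp3 and 9 for those labelled nej, against 7.66%, 9.55% and 5.54% of all features. They were above in 2, 0 and 0 members, against 5.89%, 4.92% and 4.88%. The 3 comparisons share their controls, so these counts are not independent of each other, and 0 members were called in any of them.

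**Figure D4:**
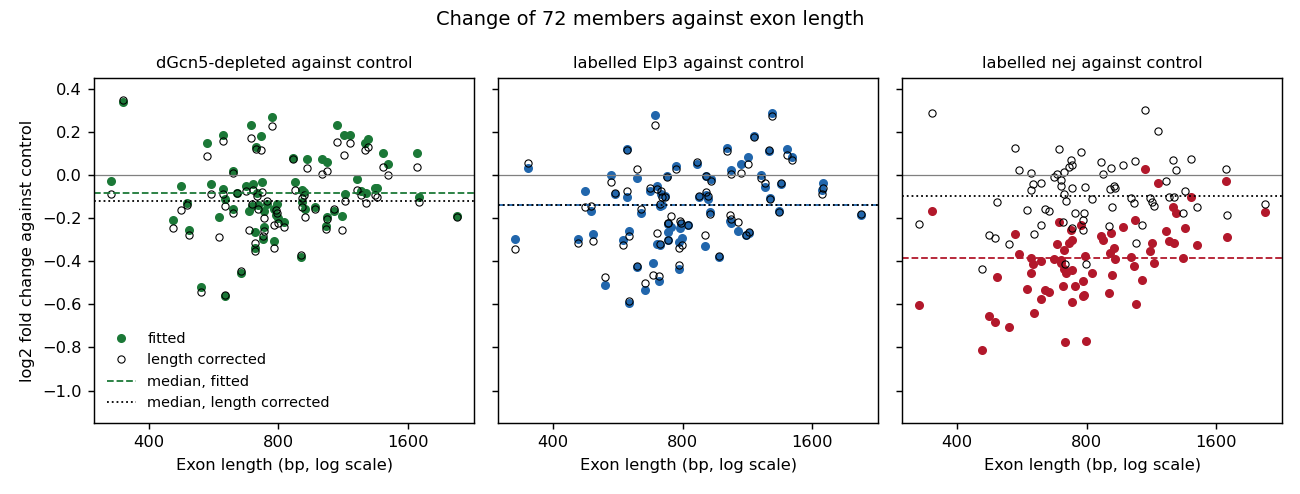
log2 fold change against control of the 72 members by exon length in bp (log scale), in 3 comparisons. Filled points are fitted values and open circles the same with the length trend removed, and lines are medians. In the libraries labelled nej the median moves from -0.39 to -0.09, while in the other comparisons it moves from -0.08 to -0.12 and stays at -0.14.

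When all 12 libraries were tested for any difference among the 4 groups, 0 of 72 members were called by edgeR's quasi-likelihood F test (Benjamini-Hochberg), against 0.00965% of 10368 features, which again is Elp3. At an unadjusted p under 0.05 there were 0 members, against 3.6% of all features, and DESeq2 called 0 members. By limma-voom with weights for sample quality, 19 of 72 members were called, against 37.1% of all features. The smallest unadjusted p-values in edgeR's test were those of mRpS17 (0.186), mRpL2 (0.257), mRpL55 (0.288) and mRpS14 (0.293).

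Named sites of the ribosome gave the following medians of the log2 fold change, with 0 members called at any of them. The stalk and its base (mRpL10, mRpL11 and mRpL12) was below 0 in all 3 comparisons, with medians of -0.29 in dGcn5-depleted cells, -0.26 under the label Elp3 and -0.44 under the label nej. These signs depended on the libraries fitted and on the length trend. Without control 3 the medians were 0.25, 0.24 and 0.051. In dGcn5-depleted cells mRpL10, mRpL11 and mRpL12 were then at 0.049, 0.35 and 0.25. Without the third libraries the medians were 0.33, 0.35 and -0.13, and with the length trend removed as well -0.15, -0.13 and 0.065. With all libraries and the length trend removed they were -0.28, -0.22 and -0.059. Without control 3 and the library labelled Elp3 1, the median under the label Elp3 was -0.14. The 6 exit tunnel members (mRpL17, mRpL22, mRpL23, mRpL24, mRpL45 and mRpL47) had medians of -0.03, -0.03 and -0.27, and the 7 of the central protuberance -0.14, -0.14 and -0.30. The signs here depended on the libraries fitted as well. In dGcn5-depleted cells without control 3, the exit tunnel members were at 0.40, 0.20, 0.42, 0.29, 0.45 and 0.27, in the order given. Of the central protuberance, mRpL18, mRpL27, mRpL38, mRpL40, mRpL46 and mRpL48 were then at 0.20, 0.43, 0.25, 0.28, 0.23 and 0.34, and mRpS30 at -0.032. By subunit, the medians were -0.11 and -0.08 (mRpL and mRpS) in dGcn5-depleted cells, -0.12 and -0.15 in the libraries labelled Elp3, and -0.38 and -0.40 in those labelled nej. Without the third libraries, the subunit medians in dGcn5-depleted cells were 0.32 and 0.39. tko had log2 fold changes of -0.02, -0.29 and -0.12 and bonsai of -0.17, -0.27 and -0.36, and neither passed the test.

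Genes that work with the mitochondrial ribosome did not pass the test either, with 0 called in every list and comparison. Of 8 tested translation factors, which load tRNAs and release finished chains, 7 were above 0 in dGcn5-depleted cells (median 0.18), 7 under the label Elp3 (0.19) and 3 under the label nej (-0.04). The 15 mitochondrial aminoacyl-tRNA synthetases had medians of 0.06, 0.07 and -0.08, and 11 tested genes of mitochondrial DNA and RNA maintenance 0.09, 0.01 and -0.19. The 5 candidate regulators (srl, ewg, Ets97D, Dref and Myc) had medians of -0.20, -0.29 and 0.02. The 13 protein-coding genes of the mitochondrial genome, the templates of these ribosomes, had medians of -0.26, -0.91 and -0.53. Of these, 6 were lower at an unadjusted p under 0.05 (edgeR's quasi-likelihood test) in the libraries labelled Elp3, against 1.44% of all features. Their summed level was 88.6%, 85.9% and 102% of the control mean, and every group overlapped the controls. The cytoplasmic ribosomal protein genes were above 0 in 76 of 86 in dGcn5-depleted cells (median 0.21), in 75 under the label Elp3 (0.11) and in 8 under the label nej (-0.22). Of all features, 47.1%, 48.1% and 50.7% were above 0. The summed level of the cytoplasmic ribosomal protein genes ran from 95246 to 196120 CPM in controls, and every group overlapped that range. Their median log2 deviation from their own means was 0.66 in control 3, against -0.42 and -0.43 in controls 1 and 2. All lists of this paragraph were read in the fits to all libraries of a comparison, without removal of the length trend.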

How the data were processed

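The values are raw counts per feature, deposited by the authors. According to the methods, the steps were trimming, removal of ribosomal RNA reads, alignment with STAR to BDGP6.32 and counting on exons with featureCounts. The strand setting and the use of molecular identifiers are not given in the sources used here. Groups were taken from the sample titles.

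In R 4.3.3, edgeR 4.0.16 was used for a quasi-likelihood F test of the counts with TMM scaling, edgeR's filter (minimum of 10 counts at the median library size), two-sided, on the 6 libraries of a comparison, or on 12 for the test of 4 groups. A call required an adjusted p under 0.05 (Benjamini-Hochberg) over all features tested. Intervals of 95% came from the F statistic. Log2 CPM used a prior count of 2. The length trend of each library was fitted by loess (span 0.5) on log2 exon length and entered as an offset. Only the pairwise edgeR test was run on simulated counts, without the filter and with no length trend or outlying library in them. The other fits were not tried in this way. Named members are those called, the 4 highest and 4 lowest log2 fold changes per comparison, the 3 highest and 3 lowest levels per kb, the 4 smallest p-values of the test of 4 groups, and the stalk and S18 genes. Others named, such as members whose groups did not overlap, were chosen after their values were seen. The members and lists were chosen with earlier results of these data known.

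Alternatives used DESeq2 1.42.0, limma 3.58.1, other scaling and filters, the replicate block, the length trend and left-out libraries. Controls and libraries labelled nej with the same number had an r of 0.14, 0.47 and 0.63 over features. Control 1 had 0.17 with the library labelled nej 2, and control 2 had 0.21 with the library labelled nej 1. The main test was unpaired, and only the replicate block took the numbers as pairs. Sequences and promoter motifs were not analysed here.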

Additional observations from a re-analysis of the deposited data

How the results depend on the processing

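The number of members called was 0 in every comparison under every alternative except those of dGcn5 against control given above (27, 28 and 6) and 19 in the test of 4 groups with limma-voom. The count of all features called varied more. For dGcn5 it was 45 with DESeq2 on 6 libraries, 18 with DESeq2 on 12, 4765 with limma-voom, 4275 without the third libraries and 2503 with the length trend removed as well. For the libraries labelled Elp3 it was 24 and 13 with DESeq2, 2 with limma-voom, 412 without the third libraries and with the length trend removed, and 0 with the replicate block, without the third libraries, or without control 3 and the library labelled Elp3 1. For those labelled nej it was 38 and 43 with DESeq2, 1 with edgeR on 12 libraries, 1 with limma-voom, 2 with the replicate block, 1 with the length trend removed and 23 with both. For the 4 groups it was 86 with DESeq2, 3844 with limma-voom, 3 without the filter, 2 with the length trend removed, 3 with the block added, 2 with the newer quasi-likelihood method and 3 without the third libraries and with the length trend removed.

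Leaving out 1 library at a time gave 0 called features for dGcn5 and nej, 0 to 1 for Elp3 and 1 for the 4 groups, with 0 members. The members' median ranged from -0.25 to 0.26 (dGcn5), -0.52 to 0.18 (Elp3) and -0.55 to -0.08 (nej). The summed level of the members in the libraries labelled nej was 3301 CPM with the length trend removed, against 3482 CPM in controls. The cause of these differences was not tested.

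The direction of some named members turned. In the libraries labelled nej, mRpL28 was at 0.20 and mRpL38 at 0.011 with limma-voom, 0.14 and 0.041 without the third libraries, and 0.29 and 0.16 with the length trend removed as well. With the length trend removed, mRpS5, mRpL28 and mRpL38 were at 0.027, 0.21 and 0.075, and at 0.060, 0.20 and 0.061 with the replicate block added. Leaving out 1 library moved mRpS5 to between -0.22 and 0.10, mRpL28 to between -0.18 and 0.19 and mRpL17 to between -0.15 and 0.15. For dGcn5, mRpL10 ranged from -0.56 to 0.049 and mRpL14 from -0.65 to 0.030. For the libraries labelled Elp3, mRpS9 ranged from -0.12 to 0.54, mRpS28 from -0.26 to 0.57, mRpL28 from -0.13 to 0.42 and mRpL4 from -0.21 to 0.35.

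The replicate numbers do not pair the dGcn5-depleted libraries (r of -0.12, 0.20 and -0.01) or those labelled Elp3 (-0.64, 0.72 and -0.10) with controls. With the replicate block the medians were -0.04, -0.15 and -0.34, with 0 members called. The promoter motifs listed for the members were not run.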
